A study of Mus musculus with 137 samples.

Results

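The 9 genes described here are factors of the pluripotency network together with the paired genes Dppa2 and Dppa4: Nanog, Pou5f1, Sox2, Zfp42, Dppa2, Dppa4, Sall4, Tdgf1 and Prdm14. They were chosen by symbol from the 36043 gene symbols of the deposited count table, and all 9 had counts and passed the filter on low counts. Each library is the polyadenylated RNA of an individual 2-cell embryo of the B6129F1 strain. The SR1848_NR5A2OE group (27 embryos in experiment 1 and 40 in experiment 2) received NR5A2 mRNA by injection at 500 ng/µl and was cultured in 10 µM SR1848, which inhibits that nuclear receptor. The SR1848 group (17 and 24 embryos) had the inhibitor alone, and the DMSO group (19 and 10 embryos) had the solvent at 0.1%. All zygotes were isolated 5 hours post fertilization (hpf), were kept in KSOM medium in chambers that had no oil, and met the inhibitor or the solvent from 6 hpf. The labels name no group with an injection that lacked NR5A2 mRNA, and entries for green fluorescent protein (GFP), which the labels do not mention, were also high in most libraries labelled SR1848_NR5A2OE. The injection, the GFP RNA and the NR5A2 mRNA therefore cannot be told apart. By its title the study is about Nr5a2 as a pioneer factor when the zygotic genome is activated. The comparisons ask how the inhibitor, and the NR5A2 injection added to it, go with the level of each transcript.

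After fertilization the mouse embryo lives on transcripts stored by the oocyte, which are degraded while the zygotic genome is switched on, with the main wave of transcription at the late 2-cell stage. Pou5f1 (also called Oct4), Sox2 and Nanog encode the DNA-binding factors at the core of the pluripotency network of the later inner cell mass and of mouse embryonic stem cells. Sall4 and Zfp42 (also called Rex1) encode zinc finger proteins, Prdm14 encodes a PR-domain regulator of naive pluripotency and of germ cells, and Tdgf1 (also called Cripto) encodes a membrane-bound co-receptor for Nodal. DPPA2 and DPPA4 are small SAP-domain proteins that bind each other, are present from the oocyte onwards, and in mouse embryonic stem cells help to activate genes typical of the 2-cell embryo. NR5A2 (also called LRH-1) recognizes variants of the sequence AAGGTCA and in mouse embryonic stem cells acts on Pou5f1. In GRCm38 (GENCODE M21) the genes lie on chromosome 6 at 122707489 to 122714633 (Nanog), chromosome 17 at 35506018 to 35510772 (Pou5f1), chromosome 3 at 34650405 to 34652461 (Sox2), chromosome 8 at 43295063 to 43306980 (Zfp42), chromosome 2 at 168748332 to 168767943 (Sall4), chromosome 9 at 110939603 to 110946158 (Tdgf1) and chromosome 1 at 13113457 to 13127163 (Prdm14), with Dppa2 and Dppa4 side by side on chromosome 16.

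The RefSeq promoter table (GRCm38.p6) holds 5 of the 9 genes (Nanog, Pou5f1, Sox2, Tdgf1 and Zfp42) in 7 windows, and promoter sequence is shown for 3 of the 5, as examples of the different directions described further on. The motifs searched on both strands were the nuclear receptor core AGGTCA, the longer forms AAGGTCA (which contains that core) and AAGGCCA that NR5A2 is known to bind, the octamer part ATGCAAA bound by POU5F1, and the core CATTGT bound by SOX2. Of 32851 windows of 300 bases, 16.255% hold AGGTCA, 4.718% AAGGTCA, 6.204% AAGGCCA, 4.627% ATGCAAA and 12.569% CATTGT on either strand. The 250 bases before the first base of the transcript follow, 5′ to 3′ on the strand of the gene, with matches in capitals. Zfp42, which was lower in SR1848 than in DMSO embryos, is on the minus strand at chr8:43307010-43307259. Nanog, which was higher in SR1848_NR5A2OE than in SR1848 embryos, is on the plus strand at chr6:122707239-122707488. Pou5f1, which was higher in SR1848 than in DMSO embryos, is on the plus strand at chr17:35505782-35506031.
Zfp42: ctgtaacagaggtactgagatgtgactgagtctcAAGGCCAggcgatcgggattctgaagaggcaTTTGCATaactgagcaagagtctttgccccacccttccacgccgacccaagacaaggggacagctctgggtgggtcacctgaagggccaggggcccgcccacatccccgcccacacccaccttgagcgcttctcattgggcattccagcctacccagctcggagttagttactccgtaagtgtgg
Nanog: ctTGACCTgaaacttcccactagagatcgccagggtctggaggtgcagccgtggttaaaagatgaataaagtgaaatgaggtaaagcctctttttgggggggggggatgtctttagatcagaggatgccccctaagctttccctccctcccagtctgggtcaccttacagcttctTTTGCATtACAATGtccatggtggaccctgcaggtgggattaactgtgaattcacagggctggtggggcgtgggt
Pou5f1: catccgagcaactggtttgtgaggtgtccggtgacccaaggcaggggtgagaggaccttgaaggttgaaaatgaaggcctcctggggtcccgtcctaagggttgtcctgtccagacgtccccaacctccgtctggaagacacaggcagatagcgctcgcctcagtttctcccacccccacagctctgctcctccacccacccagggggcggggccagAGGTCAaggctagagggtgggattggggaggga

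The Zfp42 window holds AAGGCCA on its own strand from base -216 and the octamer part on the other strand from base -185, counted from the start of the transcript. The Nanog window holds AGGTCA from base -248, the octamer part from base -75 and CATTGT from base -67, all on the other strand, and the last pair form the known composite site of POU5F1 and SOX2 in mouse cells. The first Pou5f1 window holds AGGTCA from base -33. The second Nanog window overlaps the first and holds the same octamer part and CATTGT, there from bases -151 and -143, and AAGGCCA on the other strand from base 22 after the start. The second Pou5f1 window holds CATTGT on the other strand from base -158. Of the other windows not printed, that of Sox2 holds AGGTCA from base -244 and ATGCAAA from base -99, and that of Tdgf1 holds none of the 5 motifs. Matches of these lengths are common, and they describe the letters of the windows only.

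The libraries that carry the labels were compared first, by the targeted receptor. Nr5a2 in the SR1848_NR5A2OE group ran from 5.50 to 8612 CPM (counts divided by the library's total, on the usual scale) in experiment 1 (median 2469) and from 0 to 5624 in libraries 9 to 40 of experiment 2 (median 3136). It ran from 3.82 to 50.5 CPM in the SR1848 group, and from 0 to 191 CPM in the DMSO group of experiment 1 (median 109). The injected mRNA and the embryo's own Nr5a2 are not told apart in these values, which sum the annotated transcripts. A separate Nr5a2 sequence entry was kept out of them. Its medians were 114 and 149 CPM in SR1848_NR5A2OE embryos of experiment 1 and in libraries 9 to 40 of experiment 2. They were 36.0 CPM in the SR1848 group and 64.5 CPM in the DMSO group of experiment 1. In libraries 1 to 8 of experiment 2 labelled SR1848_NR5A2OE, Nr5a2 was at 82.0 to 156 CPM and the GFP entries of the table at 0.456 CPM or less. In libraries 1 to 8 of experiment 2 labelled DMSO, Nr5a2 had a median of 2281 CPM and GFP a median of 2514 CPM. These 16 libraries go against their labels as sets. They stayed in the groups their labels give, and each fit is also given without them. Another 7 libraries (3 SR1848_NR5A2OE, 1 SR1848, 3 DMSO) were low in total counts or detected genes. The median library held 4694340 counts, the smallest 100883 and the largest 9317721, so a count of 0 in a library of median depth allows up to 0.639 CPM (3 counts, for counting error only). Without the 16 and the low libraries, 56 embryos labelled SR1848_NR5A2OE, 40 labelled SR1848 and 18 labelled DMSO remained. In 14 of the 56 (9 in experiment 1, 5 in experiment 2) GFP was under 100 CPM and Nr5a2 ran from 5.50 to 97.5 CPM, while in the other 42 Nr5a2 ran from 1706 to 8612 CPM and GFP from 1439 to 10447 CPM. These 14 libraries hold little GFP and Nr5a2 for their label. Their GFP ran from 0 to 71.2 CPM, where the highest of the 40 SR1848 embryos held 3.25 CPM. Whether they received less RNA or none was not tested and may differ among them. Calls that change without them in the fits to both experiments are given both ways, a choice made after seeing the data. Fits within 1 experiment, the interaction test, the correlations and the genes of like pattern were not run without them. Values given as without the 14 leave out the 16 and the 7 low libraries as well. A library pools the blastomeres of an embryo, so fewer expressing cells and less RNA per cell cannot be told apart, and nothing in the labels says whether embryos shared parents: p-values measure the spread between these embryos.

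**Figure D1:**
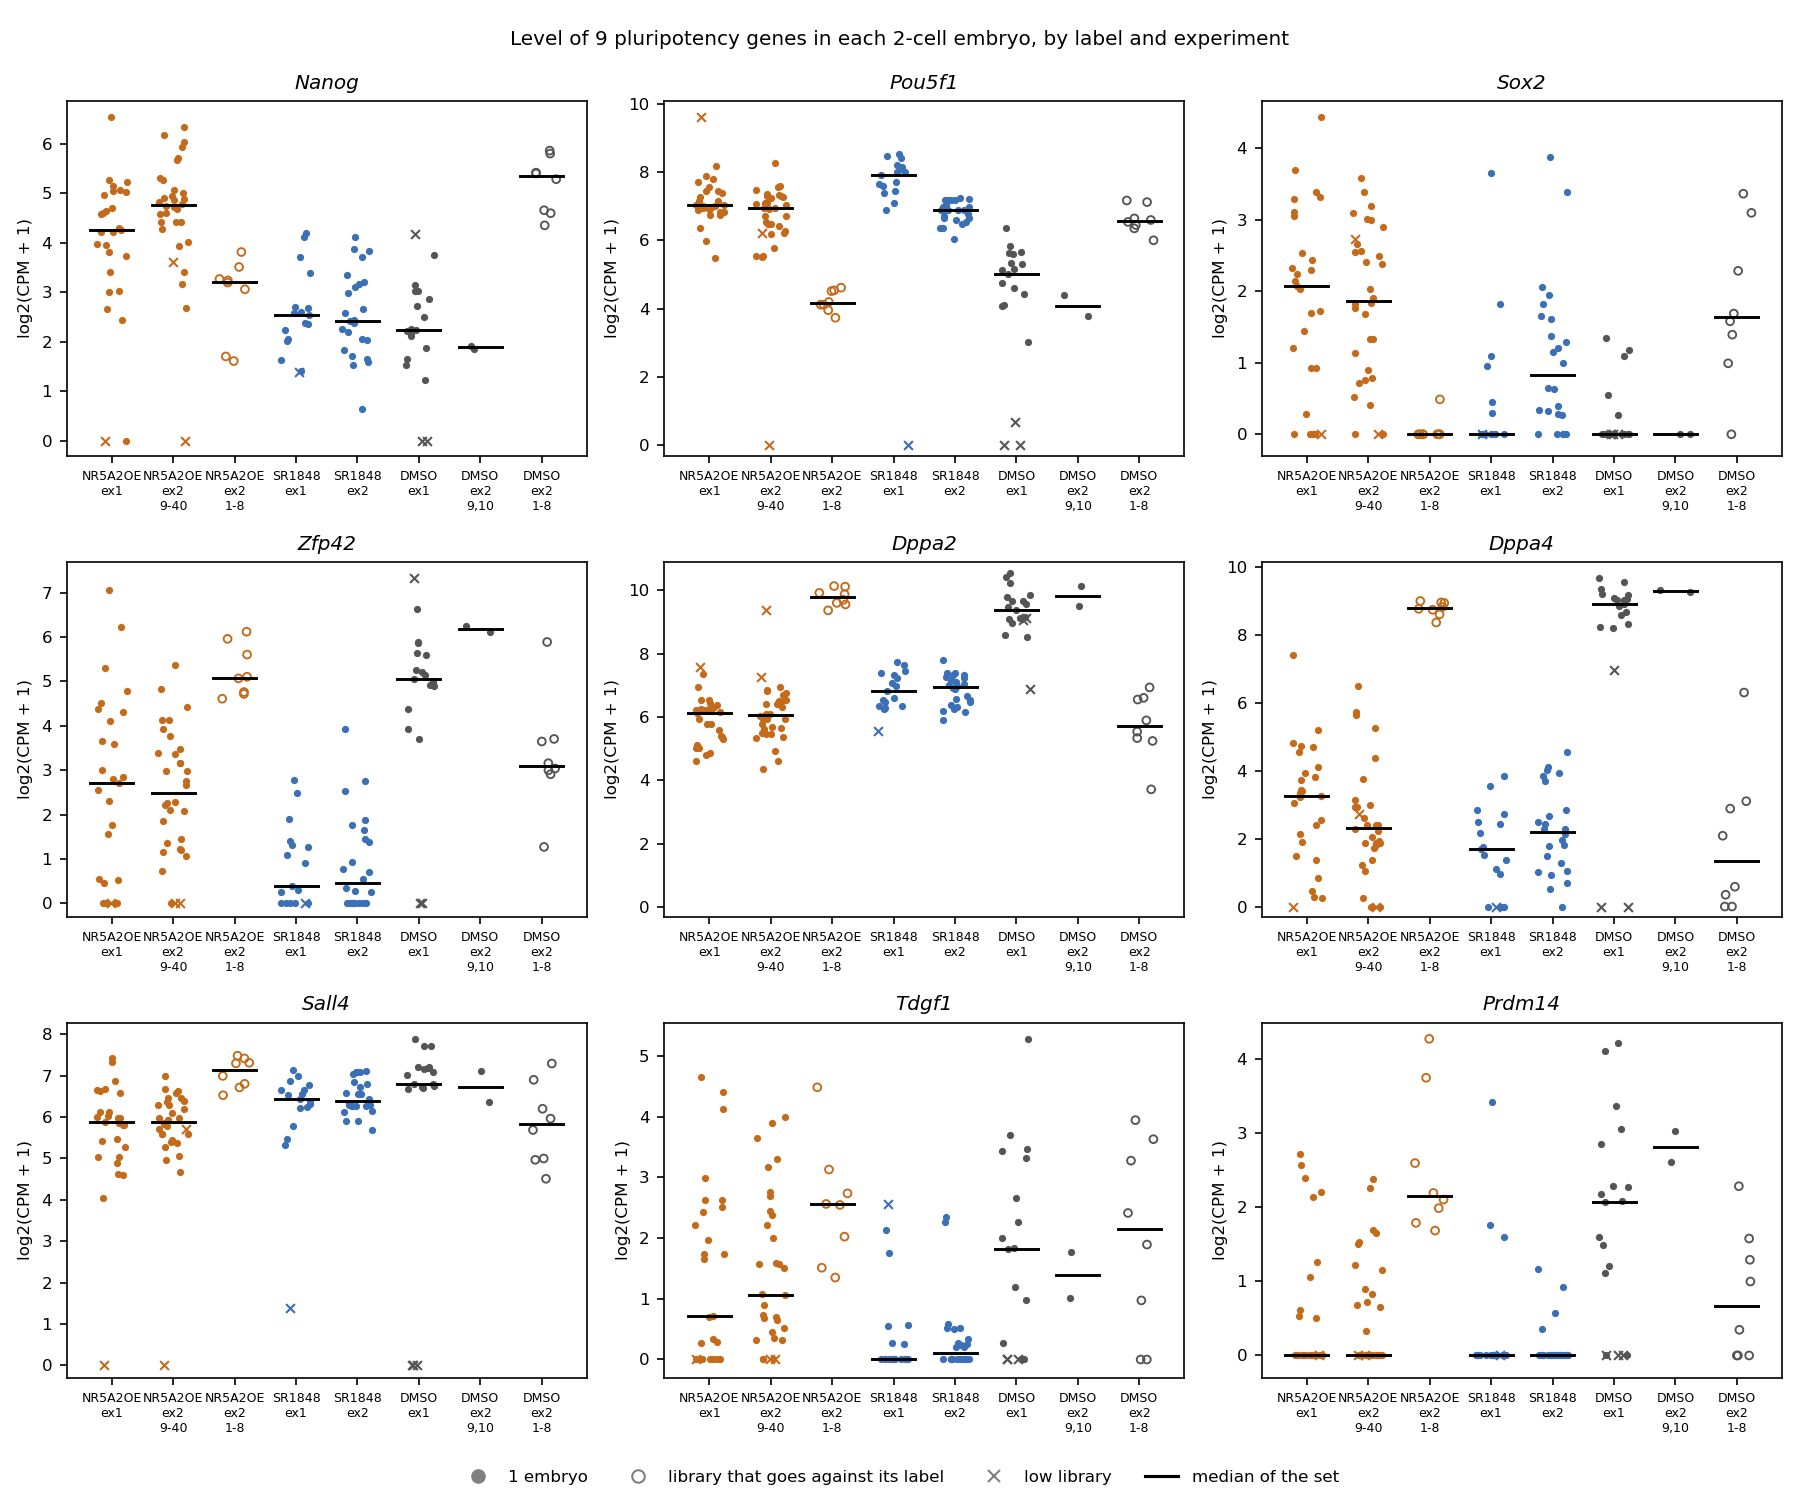
Level of each of the 9 genes, as log2(CPM + 1), in every embryo of the SR1848_NR5A2OE (orange), SR1848 (blue) and DMSO (grey) labels, by experiment (ex1, ex2) and library numbers. Open circles are the 16 libraries that go against their labels, crosses the 7 low libraries and bars the median of each set. Dppa4 has a set median of 481 CPM in the DMSO embryos of experiment 1 and of 2.24 CPM in the SR1848 embryos of experiment 1.

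Divided by the length of the main transcript, the order of the 9 genes in the 18 DMSO embryos was led by Dppa4 and Dppa2, with medians of 410.2 and 376 CPM per kb. Sall4, Pou5f1 and Zfp42 followed at 25.9, 24.2 and 19.9 CPM per kb and overlapped each other in their embryos. Nanog, Prdm14 and Tdgf1 were at 1.86, 1.44 and 1.32 CPM per kb, and Sox2 had a median of 0. In the 40 SR1848 embryos the order was led by Pou5f1 at 102 CPM per kb, ahead of Dppa2 at 62.3 and Sall4 at 16.8. In the 56 SR1848_NR5A2OE embryos it was Pou5f1 at 93.9, Dppa2 at 32.0, Nanog at 12.2 and Sall4 at 11.8 CPM per kb, the last pair differing by less than their spread. Dppa4, first in DMSO embryos, was at 3.61 CPM per kb in SR1848_NR5A2OE embryos and at 2.45 in SR1848 embryos.

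The inhibitor alone was set against the solvent first. Dppa4, Dppa2, Zfp42, Prdm14 and Tdgf1 were lower in SR1848 embryos than in DMSO embryos and Pou5f1 was higher, while Nanog and Sox2 depended on the 16 libraries. With every library as labelled, 1 of the 9 genes was higher and 6 were lower by the edgeR test at an adjusted p under 0.05. Of 14499 genes tested, 33.1% were higher and 36.0% lower. Without the 16 libraries 2 genes were higher and 5 lower, where 41.5% and 32.7% of 14883 genes were. The share of higher members is below the background in both fits and that of lower members above it, with a median log2 fold change over the 9 of -2.27 as labelled and -2.37 without the 16, beside -0.05 and 0.35 over all genes.

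Dppa4 had the largest log2 fold change of the 9 genes as labelled. It ran from 0 to 13.4 CPM (median 2.24) in SR1848 embryos of experiment 1 and from 0 to 22.4 CPM (median 3.60) in those of experiment 2. It ran from 0 to 804 CPM (median 481) in DMSO embryos of experiment 1 and was at 615 and 634 CPM in DMSO embryos 9 and 10 of experiment 2. Every SR1848 embryo was below the lowest DMSO embryo, at 294 CPM, once the low and the 16 libraries were set aside. How many of all genes separate as fully was not computed, here or for the genes that follow. DMSO libraries 1 to 8 of experiment 2 had 0 to 77.5 CPM (median 1.87), and 1 of the 8 was above the highest SR1848 embryo of experiment 2. As a log2 fold change this was -6.61 ± 0.72 (SE) as labelled, with an edgeR adjusted p of 4.94e-14. It was -6.29 ± 0.53 without the 16 libraries, with an edgeR adjusted p of 4.09e-20.

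Dppa2, the partner of Dppa4, was lower in the same embryos but stayed well detected. It ran from 45.6 to 213 CPM (median 112) in SR1848 embryos of experiment 1 and from 59.0 to 222 CPM (median 121) in those of experiment 2. It ran from 117 to 1492 CPM (median 666) in DMSO embryos of experiment 1 and was at 716 and 1116 CPM in DMSO embryos 9 and 10 of experiment 2. With the low and the 16 libraries set aside, all 40 SR1848 embryos were below the lowest DMSO embryo, at 364 CPM. On the log2 scale the fold change was -2.27 ± 0.34 (SE) as labelled (edgeR adjusted p 5.07e-09) and -2.37 ± 0.19 without the 16 (edgeR adjusted p 5.76e-21). Where Dppa2 was 5.19 times lower, Dppa4 was 78.5 times lower in the same fit.

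Zfp42, a zinc finger gene used as a marker of naive pluripotency in mouse cells, was near the floor in SR1848 embryos. Its medians were 0.321 and 0.369 CPM in SR1848 embryos of experiments 1 and 2, with a highest value of 14.3 CPM. DMSO embryos of experiment 1 had a median of 32.4 CPM and a highest value of 159 CPM, and DMSO embryos 9 and 10 of experiment 2 were at 67.9 and 74.6 CPM. Of 40 SR1848 embryos, 39 were below the lowest of 18 DMSO embryos, at 12.0 CPM. The log2 fold change was -4.40 ± 0.54 as labelled (edgeR adjusted p 5.99e-12) and -4.45 ± 0.57 without the 16 (edgeR adjusted p 1.26e-11).

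Prdm14 and Tdgf1 were low in every group, and the groups overlapped at 0. Prdm14 had a median of 0 in the 40 SR1848 embryos, 33 of which held no count, against 3.68 CPM in the 18 DMSO embryos, 2 of which held none. As a log2 fold change this was -2.84 ± 0.66 as labelled (edgeR adjusted p 9.12e-05) and -2.94 ± 0.68 without the 16 (edgeR adjusted p 7.16e-05). Tdgf1 had a median of 0 in SR1848 embryos, against 2.55 CPM in DMSO embryos, and 37 of 40 SR1848 embryos were below the DMSO median. On the log2 scale the fold change was -3.18 ± 0.60 as labelled (edgeR adjusted p 2e-06) and -2.82 ± 0.69 without the 16 (edgeR adjusted p 0.000159). In experiment 2 without the 16, where 2 DMSO embryos were left, Tdgf1 did not pass (-1.89 ± 1.32, edgeR adjusted p 0.273).

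Pou5f1 went the other way. It ran from 0 to 367 CPM (median 243) in SR1848 embryos of experiment 1 and from 64.9 to 151 CPM (median 117) in those of experiment 2. It ran from 0 to 81.6 CPM (median 31.5) in DMSO embryos of experiment 1, and was at 12.7 and 20.3 CPM in DMSO embryos 9 and 10 of experiment 2. Of 40 SR1848 embryos, 38 were above the highest of 18 DMSO embryos. The log2 fold change was 1.71 ± 0.30 as labelled (edgeR adjusted p 5.15e-07) and 2.95 ± 0.31 without the 16 (edgeR adjusted p 2.99e-15). Scaled to the oocyte list instead of to all genes it was 0.52 as labelled, which did not pass, and 1.33 without the 16.

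Stored oocyte transcripts moved with the inhibitor, and the second scaling is read against them. The summed level of 10 oocyte genes (Zp1, Zp2, Zp3, Gdf9, Bmp15, Oosp1, Nlrp5, Ooep, Mos and Nobox) ran from 2351 to 6341 CPM in the 40 SR1848 embryos and from 710.5 to 1846 CPM in the 18 DMSO embryos. All 10 had medians of at least 1 CPM in both groups, and 9 of the 10 were higher and 1 lower in SR1848 embryos without the 16. Scaled to that list without the 16, the median of all genes was -1.88 in place of 0.35, and the levels of the 9 genes shift with it. On that scale 9952 of 14883 genes were lower in SR1848 embryos and 1200 higher. Dppa4 at -8.43, Zfp42 at -6.44, Prdm14 at -5.11 and Tdgf1 at -4.88 were among the lower ones. The list is itself higher in SR1848 embryos, so the scale lowers most genes and these values are no separate support. Dppa2 was at -7.63, and at -4.61 with the low libraries also set aside. Pou5f1 is itself a transcript that the oocyte stores, and the part of stored RNA in its difference was not tested.

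Sox2 and Nanog changed with the choice of libraries. Sox2 held no count in 15 of 40 SR1848 embryos and in 13 of 18 DMSO embryos, and reached 13.8 CPM in SR1848 embryos and 1.54 CPM in DMSO embryos. As a log2 fold change this was 0.44 ± 0.59 as labelled (edgeR adjusted p 0.509) and 2.72 ± 0.73 without the 16 (edgeR adjusted p 0.000518), and on the oocyte scale it was -0.40 as labelled and 1.02 without the 16, neither of which passed. Nanog had medians of 4.84 and 4.38 CPM in SR1848 embryos of experiments 1 and 2, against 3.74 CPM in DMSO embryos of experiment 1, 2.64 and 2.78 CPM in DMSO embryos 9 and 10, and 39.7 CPM in DMSO libraries 1 to 8 of experiment 2. As labelled it was lower in SR1848 embryos (log2 fold change -1.03 ± 0.32, edgeR adjusted p 0.00341). Without the 16 the sign turned and the test did not pass (0.51 ± 0.33, edgeR adjusted p 0.155), while on the oocyte scale without the 16 it was -1.57. The 2 groups overlapped over most of their range, with 5 of 40 SR1848 embryos above the highest DMSO embryo.

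Sall4, which encodes a zinc finger factor also stored by the oocyte, had the smallest log2 fold change of the 9 genes as labelled. It had medians of 85.0 and 82.7 CPM in SR1848 embryos of experiments 1 and 2, against 111 CPM in DMSO embryos of experiment 1 and 80.9 and 136 CPM in DMSO embryos 9 and 10. On the log2 scale the fold change was -0.15 ± 0.25 as labelled (edgeR adjusted p 0.614) and -0.18 ± 0.29 without the 16 (edgeR adjusted p 0.576). With the low libraries also set aside it was -0.48 ± 0.16 (edgeR adjusted p 0.00547), and 35 of 40 SR1848 embryos were below the DMSO median. On the oocyte scale without the 16 it was -2.32.

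The embryos labelled SR1848_NR5A2OE were then set against those with the inhibitor alone. Nanog, Zfp42 and Tdgf1 were higher in SR1848_NR5A2OE embryos than in SR1848 embryos with all libraries, without the 16 and without the 14 as well, and Pou5f1 did not pass the test. Dppa2 and Sall4 were lower when the 16 libraries were set aside. Dppa4 and Sox2 were higher with all libraries and without the 16, and did not pass when the 14 libraries with little GFP were also set aside. As labelled, 6 of the 9 genes were higher and 0 lower by the edgeR test, where 29.6% and 13.0% of all genes were. Without the 16 libraries 5 were higher and 2 lower, where 21.8% and 12.4% of all genes were. Without the 16, the low and the 14 libraries 4 were higher (Nanog, Zfp42, Tdgf1 and Prdm14) and 2 lower, where 24.4% and 18.1% of 14711 genes were. DESeq2 called 1 of the 9 lower as labelled, and the fit as labelled held 7129 genes at an unadjusted p under 0.05 in either direction. The median log2 fold change over the 9 was 1.95 as labelled and 1.33 without the 16, beside 0.09 and 0.02 over all genes, and 1.09 without the 14, beside 0.06.

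Nanog was higher in both experiments. It ran from 0 to 92.1 CPM (median 18.3) in SR1848_NR5A2OE embryos of experiment 1 and from 0 to 80.2 CPM (median 26.1) in libraries 9 to 40 of experiment 2. It ran from 1.63 to 17.3 CPM (median 4.84) in SR1848 embryos of experiment 1 and from 0.552 to 16.3 CPM (median 4.38) in those of experiment 2. Of 56 SR1848_NR5A2OE embryos, 41 were above the highest of 40 SR1848 embryos and 54 above their median. The log2 fold change was 1.95 ± 0.29 as labelled (edgeR adjusted p 1.21e-08) and 2.09 ± 0.25 without the 16 (edgeR adjusted p 1.75e-11), and it passed within each experiment (1.76 ± 0.41 in experiment 1, edgeR adjusted p 0.00115, and 2.36 ± 0.30 in experiment 2 without the 16, edgeR adjusted p 1.3e-08). Without the 14 it was 2.21 ± 0.21 (edgeR adjusted p 2.48e-16), and 34 of the 42 embryos left were above the highest SR1848 embryo and all 42 above the SR1848 median. The 14 libraries with little GFP ran from 0 to 92.1 CPM (median 16.0) themselves. Of these 14, 7 were above the highest SR1848 embryo, so raised Nanog was not limited to embryos with high Nr5a2.

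Zfp42 was above the SR1848 median in most but not all embryos. It ran from 0 to 132 CPM (median 5.54) in SR1848_NR5A2OE embryos of experiment 1 and from 0 to 40.6 CPM (median 4.62) in libraries 9 to 40 of experiment 2, against the SR1848 medians of 0.321 and 0.369 CPM. Of 56 SR1848_NR5A2OE embryos, 14 were above the highest SR1848 embryo, 49 were above the SR1848 median and 6 held no count. The libraries with little GFP hold 8 of the embryos above the highest SR1848 embryo, and the maximum of 132 CPM. As a log2 fold change this was 3.24 ± 0.47 as labelled (edgeR adjusted p 9.57e-09) and 2.78 ± 0.47 without the 16 (edgeR adjusted p 5.55e-07). Without the 14 libraries it was 2.12 ± 0.43 (edgeR adjusted p 2.06e-05), with a median of 3.72 CPM and a highest value of 27.3 CPM in the 42 embryos left, 36 of which were above the SR1848 median.

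Tdgf1, the Nodal co-receptor gene, had a median of 1.47 CPM and a highest value of 24.2 CPM in the 56 SR1848_NR5A2OE embryos, against 0 and 4.08 CPM in the 40 SR1848 embryos. On the log2 scale the fold change was 2.88 ± 0.54 as labelled (edgeR adjusted p 4.55e-06) and 2.74 ± 0.55 without the 16 (edgeR adjusted p 2.74e-05), and without the 14 libraries it was 3.12 ± 0.56 (edgeR adjusted p 2.08e-06). Sox2 had a median of 3.09 CPM in SR1848_NR5A2OE embryos, against 0.292 CPM in SR1848 embryos, and the groups overlapped up to the highest values. Its log2 fold change was 1.31 ± 0.51 as labelled (edgeR adjusted p 0.0281) and 1.35 ± 0.46 without the 16 (edgeR adjusted p 0.0158), and it did not pass within experiment 1 (2.01 ± 0.78, edgeR adjusted p 0.0606) or within experiment 2 without the 16 (0.94 ± 0.52, edgeR adjusted p 0.165). Without the 14 libraries Sox2 was at 1.09 ± 0.50 and did not pass (edgeR adjusted p 0.0687), with a median of 2.47 CPM in the 42 embryos left, while on the oocyte scale it was at 1.38 and passed (edgeR adjusted p 0.0283). Prdm14 had a median of 0 in both groups. As a log2 fold change this was 1.96 ± 0.62 as labelled (edgeR adjusted p 0.00673), and without the 16 it was 1.19 ± 0.57 and did not pass (edgeR adjusted p 0.0969). On the oocyte scale without the 16 it was 1.55 and passed (edgeR adjusted p 0.0129), as it did without the 14 (1.46 ± 0.61, edgeR adjusted p 0.0446).

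The call for Dppa4 in this comparison rests on the 14 libraries with little GFP. Dppa4 had medians of 8.49 and 4.00 CPM in SR1848_NR5A2OE embryos of experiment 1 and in libraries 9 to 40 of experiment 2, against 2.24 and 3.60 CPM in SR1848 embryos. The highest values were 168 CPM in SR1848_NR5A2OE embryos and 22.4 CPM in SR1848 embryos, and 10 of 56 SR1848_NR5A2OE embryos were above the highest SR1848 embryo, 9 of them among the 14 libraries. On the log2 scale the fold change was 3.27 ± 0.58 as labelled (edgeR adjusted p 1.25e-06) and 1.33 ± 0.39 without the 16 (edgeR adjusted p 0.0038). Within experiment 1 it was 2.06 ± 0.59 (edgeR adjusted p 0.00895), and within experiment 2 without the 16 it was 0.91 ± 0.49 and did not pass (edgeR adjusted p 0.153). Without the 14 it was -0.06 ± 0.30 (edgeR adjusted p 0.903), and the 42 embryos left ran from 0 to 22.4 CPM (median 3.77), the range of the SR1848 embryos but for 1 embryo. It was 0.29 on the oocyte scale without the 14 and did not pass (edgeR adjusted p 0.528).

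Dppa2 ran from 23.5 to 189 CPM (median 68.6) in SR1848_NR5A2OE embryos of experiment 1 and from 19.4 to 661 CPM (median 65.4) in libraries 9 to 40 of experiment 2, against medians of 112 and 121 CPM in SR1848 embryos. Both of these maxima are from low libraries, and the highest of the 56 embryos without the 16 and the low was at 164 CPM. As labelled the log2 fold change was 0.21 ± 0.28 and did not pass (edgeR adjusted p 0.584). In libraries 1 to 8 of experiment 2 labelled SR1848_NR5A2OE, Dppa2 was at 656 to 1117 CPM, all above the SR1848 embryos. Without the 16 it was -0.84 ± 0.14 (edgeR adjusted p 8.78e-07), and 53 of 56 SR1848_NR5A2OE embryos were below the SR1848 median. Without the 14 it was -0.94 ± 0.13 (edgeR adjusted p 4.1e-09), with 41 of 42 embryos below that median. On the oocyte scale without the 16 it turned to 3.87, and with the low libraries also set aside it was -0.46 ± 0.13 (edgeR adjusted p 0.00201), where the median of all genes was 0.59. Without the 14 on that scale it was -0.72 ± 0.14 (edgeR adjusted p 5.88e-06). The summed oocyte list was at 0 CPM in the lowest of the SR1848_NR5A2OE libraries, which is a low library. Sall4 was lower by a smaller step (log2 fold change -0.53 ± 0.20, edgeR adjusted p 0.034, without the 16), with medians of 59.8 CPM in SR1848_NR5A2OE embryos and 85.1 CPM in SR1848 embryos. As labelled Sall4 did not pass (-0.35 ± 0.20, edgeR adjusted p 0.159), and on the oocyte scale without the 16 it was 0.17. Without the 14 it was -0.69 ± 0.10 (edgeR adjusted p 2.58e-08), and -0.38 on the oocyte scale (edgeR adjusted p 0.0142).

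Pou5f1 had medians of 129 and 122 CPM in SR1848_NR5A2OE embryos of experiment 1 and in libraries 9 to 40 of experiment 2, against 243 and 117 CPM in SR1848 embryos. Its log2 fold change was -0.40 ± 0.23 as labelled (edgeR adjusted p 0.153) and -0.25 ± 0.20 without the 16 (edgeR adjusted p 0.351). On the oocyte scale it was 0.94 without the 16 and 0.08 with the low libraries also set aside. Without the 14 it was -0.08 ± 0.13 (edgeR adjusted p 0.646), and 0.14 on the oocyte scale. The summed oocyte list had a median of 3364 CPM in the 56 SR1848_NR5A2OE embryos (3787 CPM without the 14) and of 4377 CPM in the 40 SR1848 embryos. Without the 16, 0 of its 10 genes were higher and 3 lower by edgeR (6 lower without the 14), and its part in these differences was not tested.

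**Figure D2:**
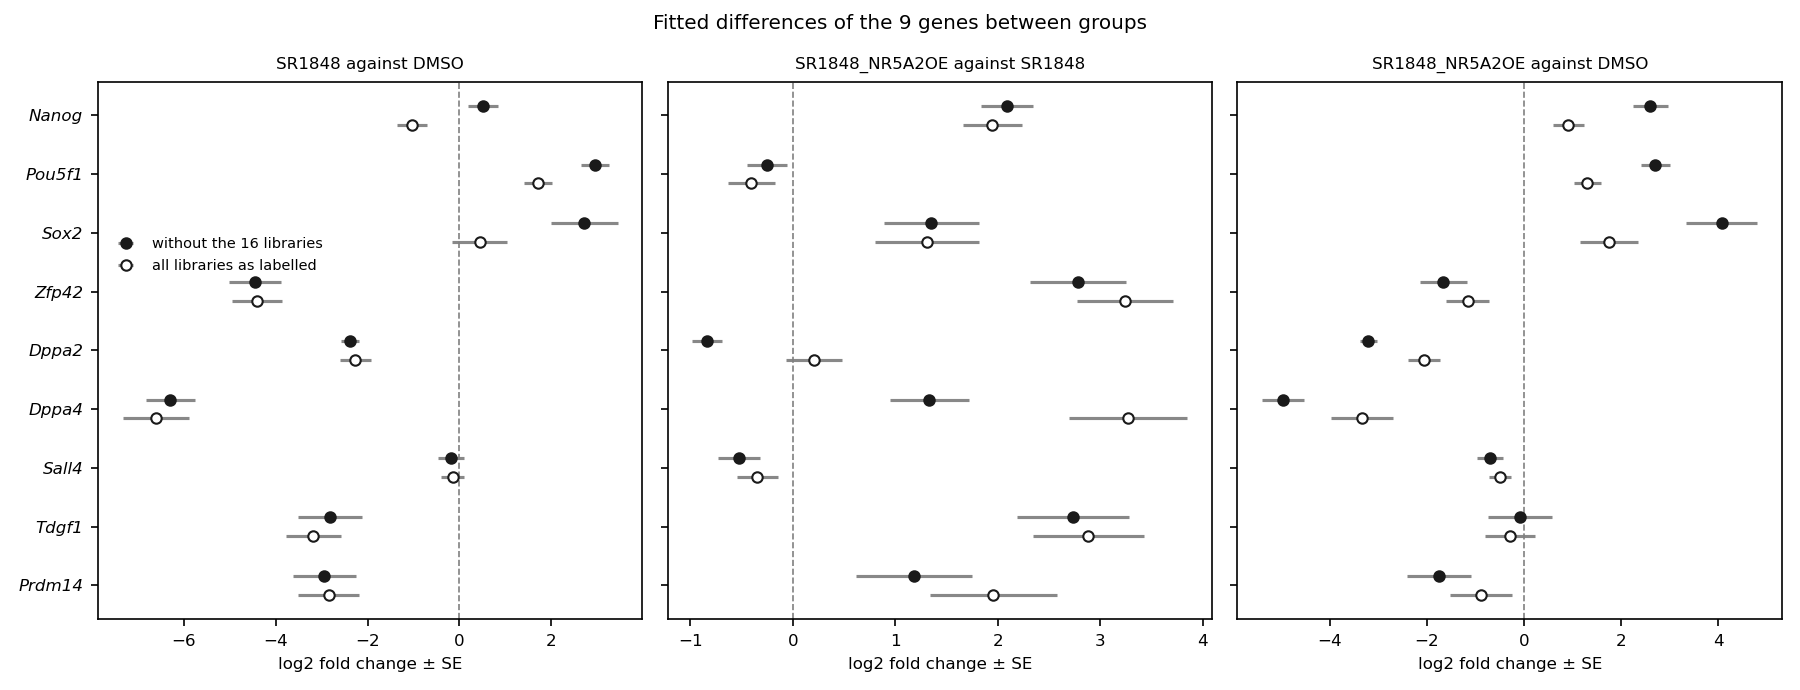
Log2 fold change with its standard error for the 9 genes in 3 comparisons, from the edgeR fit to all libraries as labelled (open) and to the libraries without the 16 that go against their labels (filled). Dppa2 in SR1848_NR5A2OE against SR1848 is at 0.21 as labelled and at -0.84 without the 16, and on the oocyte scale it is at 4.54 and 3.87. These last values depend on the low libraries. With the low libraries and the 16 set aside, Dppa2 is lower in SR1848_NR5A2OE embryos on that scale too. On that scale without the 16, Nanog in SR1848 against DMSO is at -1.57, and Sall4 and Pou5f1 in SR1848_NR5A2OE against SR1848 are at 0.17 and 0.94. Without the 14 libraries with little GFP, which both fits drawn include, Dppa4 and Sox2 in SR1848_NR5A2OE against SR1848 are at -0.06 and 1.09 and do not pass.

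The embryos labelled SR1848_NR5A2OE were last set against the solvent. This comparison shares embryos with each of the others, so its values are placed beside them and no overlap between comparisons was computed. As labelled, 3 of the 9 genes were higher and 3 lower, where 30.9% and 25.8% of all genes were. Without the 16 libraries 3 were higher and 5 lower, where 43.9% and 29.9% of all genes were, which is below the background for higher and above it for lower members. Without the 14 as well the counts were 3 and 5, where 43.3% and 36.6% of all genes were. Without the 16, Dppa4 (log2 fold change -4.96 ± 0.43, edgeR adjusted p 2.41e-19) and Dppa2 (-3.21 ± 0.18, edgeR adjusted p 1.21e-32) were lower in SR1848_NR5A2OE embryos. All 56 SR1848_NR5A2OE embryos were below the lowest of the 18 DMSO embryos for each gene of the pair. The share of all genes that separate as fully was not computed. Zfp42 was also lower (-1.67 ± 0.48, edgeR adjusted p 0.0013), with 41 of 56 embryos below the lowest DMSO embryo. Within experiment 1 alone Zfp42 did not pass (-1.21 ± 0.59, edgeR adjusted p 0.0664). Without the 14 libraries Zfp42 was at -2.61 ± 0.50 (edgeR adjusted p 1.66e-06), with 36 of 42 embryos below the lowest DMSO embryo, Dppa4 at -6.62 ± 0.37 (edgeR adjusted p 2.2e-31) and Dppa2 at -3.59 ± 0.18 (edgeR adjusted p 9.74e-36).

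Nanog was above the solvent level in this comparison. As a log2 fold change this was 0.92 ± 0.31 as labelled (edgeR adjusted p 0.00908) and 2.60 ± 0.36 without the 16 (edgeR adjusted p 1.76e-10), with medians of 24.4 CPM in 56 SR1848_NR5A2OE embryos and 3.71 CPM in 18 DMSO embryos. Of those 56 embryos, 46 were above the highest DMSO embryo. On the oocyte scale it was 0.39 as labelled, which did not pass (edgeR adjusted p 0.238), and 1.12 without the 16 (edgeR adjusted p 0.00295). Sox2 was higher too (4.07 ± 0.74 without the 16, edgeR adjusted p 5.63e-07), as was Pou5f1 (2.71 ± 0.30, edgeR adjusted p 5.59e-14). Prdm14 (-1.75 ± 0.66, edgeR adjusted p 0.0133) and Sall4 (-0.70 ± 0.26, edgeR adjusted p 0.0123) were lower without the 16 and did not pass as labelled. Without the 14 Sall4 was at -1.16 ± 0.14 (edgeR adjusted p 1.5e-12). Tdgf1 differed by less than its error (-0.08 ± 0.66, edgeR adjusted p 0.915, without the 16), and on the oocyte scale without the 16 it was lower (-1.65 ± 0.65, edgeR adjusted p 0.0213). In the order SR1848_NR5A2OE, SR1848, DMSO, the median of Nanog was 24.4, 4.62 and 3.71 CPM, that of Zfp42 5.67, 0.389 and 35.3 CPM, and that of Dppa4 4.59, 3.11 and 521 CPM. In the 42 SR1848_NR5A2OE embryos without the 14 these medians were 25.5 CPM for Nanog, 3.72 CPM for Zfp42 and 3.77 CPM for Dppa4.

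Embryo by embryo, the low genes were counted as detected at 1 CPM or more. Sox2 reached this level in 73.2% of 56 SR1848_NR5A2OE embryos, 35.0% of 40 SR1848 embryos and 16.7% of 18 DMSO embryos. The exact 95% binomial (Clopper-Pearson) intervals were 59.7 to 84.2%, 20.6 to 51.7% and 3.58 to 41.4%, so those of SR1848 and DMSO overlap. Zfp42 reached it in 82.1% of SR1848_NR5A2OE embryos, 37.5% of SR1848 embryos and all 18 DMSO embryos. Tdgf1 reached it in 53.6% of SR1848_NR5A2OE embryos, 10.0% of SR1848 embryos and 72.2% of DMSO embryos. Prdm14 reached it in 26.8% of SR1848_NR5A2OE embryos, 10.0% of SR1848 embryos and 88.9% of DMSO embryos. In the 42 SR1848_NR5A2OE embryos without the 14 the shares were 69.0% for Sox2, 78.6% for Zfp42, 54.8% for Tdgf1 and 26.2% for Prdm14. Amplified reads have no molecular identifiers here, so intervals cover counting of embryos only. Median totals were 4550793 counts in SR1848_NR5A2OE libraries, 4854081 in SR1848 libraries and 5002648 in DMSO libraries, all as labelled.

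**Figure D3:**
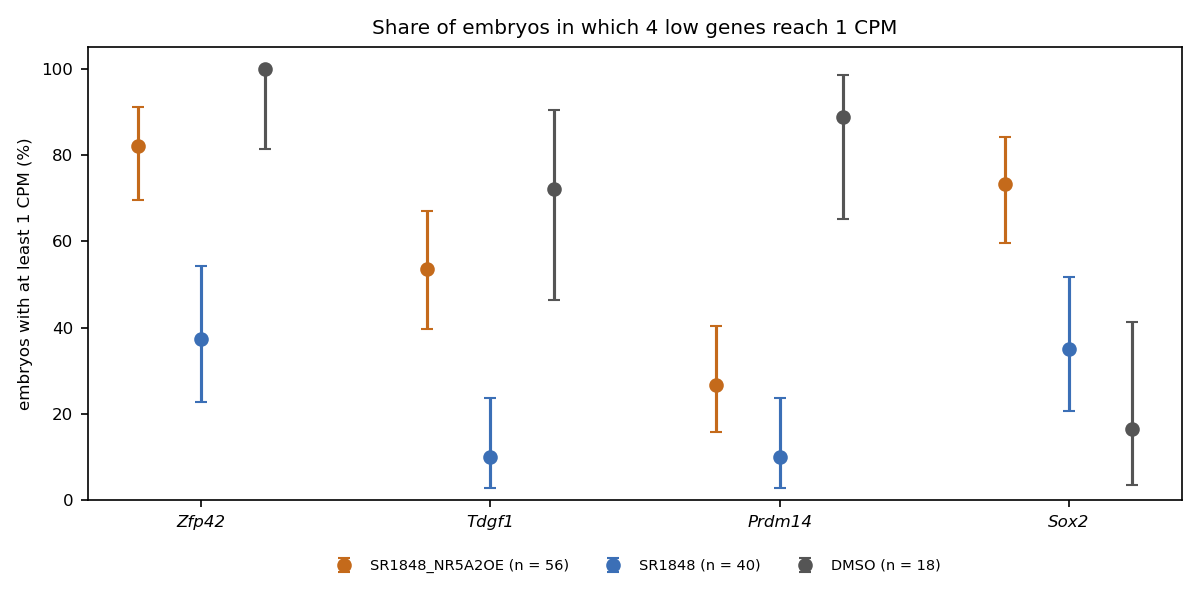
Share of embryos in which Zfp42, Tdgf1, Prdm14 and Sox2 reach 1 CPM, in percent, with exact 95% binomial intervals, without the 16 and the low libraries. The share for Zfp42 is 82.1% in SR1848_NR5A2OE embryos, 37.5% in SR1848 embryos and complete in the 18 DMSO embryos, and that for Sox2 is 73.2%, 35.0% and 16.7%.

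Dppa2 (GRCm38 chromosome 16, 48303908 to 48319723, plus strand) and Dppa4 (chromosome 16, 48283733 to 48294237, plus strand) lie next to each other, and their levels were compared across embryos within each label and experiment. In the 16 DMSO embryos of experiment 1 that were not low, their log2 CPM correlated with a Pearson r of 0.78 (2-sided permutation p 0.0004, adjusted over 5 sets 0.002) and a Spearman rho of 0.78 (permutation p 0.00065, adjusted 0.00325). Without the 2 embryos farthest from the median of Dppa2, r was 0.71. Across these 16 embryos Dppa2 also correlated with the log2 total count at r = 0.50 and Dppa4 at r = 0.43, and the part of depth in the correlation was not tested. In the other 4 sets r ran from -0.19 to 0.25 and the adjusted permutation p from 0.507 to 0.965. Those sets hold Dppa4 at medians of 2.24 to 8.49 CPM when all their libraries are counted. The SR1848_NR5A2OE sets include the 14 libraries with little GFP, whose Dppa4 median was 26.3 CPM, against 3.77 CPM in the other 42 embryos.

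**Figure D4:**
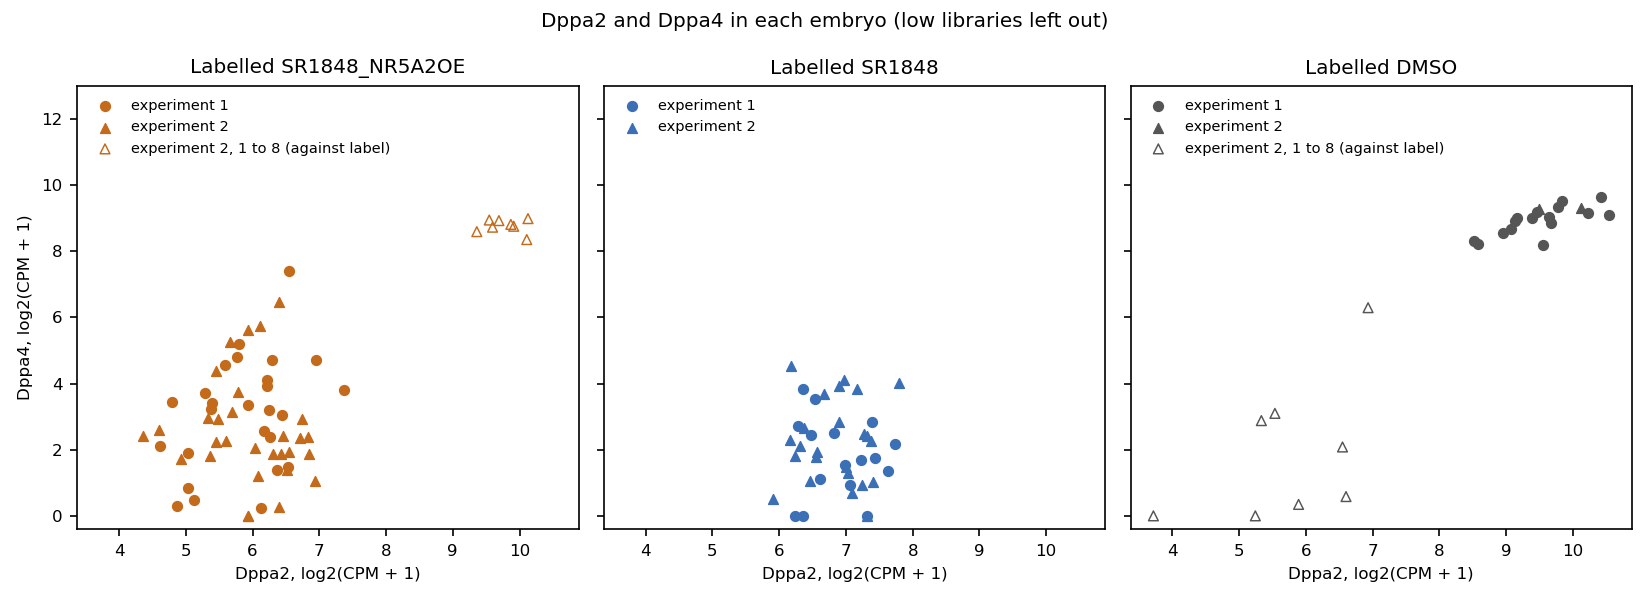
Dppa4 against Dppa2 in each embryo, both as log2(CPM + 1), for the labels SR1848_NR5A2OE, SR1848 and DMSO, with circles for experiment 1, triangles for experiment 2 and open triangles for the 16 libraries that go against their labels. The 16 DMSO embryos of experiment 1 form the group at the upper right (r = 0.78). The open triangles lie apart from the filled points of their own label.

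The 16 libraries were compared with the other sets by label and number. In libraries 1 to 8 of experiment 2 labelled SR1848_NR5A2OE, Dppa4 was at 326 to 507 CPM, Zfp42 at 23.4 to 68.6 CPM, Nanog at 2.06 to 13.1 CPM and Pou5f1 at 12.3 to 23.6 CPM. In libraries 1 to 8 of experiment 2 labelled DMSO, Dppa4 was at 0 to 77.5 CPM, Dppa2 at 12.1 to 121 CPM, Nanog at 19.5 to 57.3 CPM and Pou5f1 at 63.2 to 143 CPM. For Nanog all 8 of these DMSO-labelled libraries were above the highest DMSO embryo of experiment 1. When the effect in experiment 2 was tested against that in experiment 1 as labelled, 2 of the 9 genes differed for SR1848 against DMSO (30.3% of all genes), 2 for SR1848_NR5A2OE against SR1848 (4.59%) and 5 for SR1848_NR5A2OE against DMSO (49.3%). Without the 16, 0 of the 9 differed in any of these by the edgeR interaction test, and 0.181%, 3.6% and 0.0% of all genes did. Experiment 2 then holds 2 DMSO embryos, so the comparisons with DMSO could miss large differences (for Sox2 in SR1848 against DMSO, 4.08 ± 2.25). Prdm14 then had an unadjusted p of 0.0492 for SR1848 against DMSO and of 0.0303 for SR1848_NR5A2OE against SR1848, the lowest among the 9 genes. For experiment 2 alone as labelled, edgeR called 0 of 15255 genes for SR1848_NR5A2OE against DMSO, with 343 at an unadjusted p under 0.05.

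Around the 9 genes, 4 further lists of genes were counted, without the 16 libraries unless stated. The shares of all genes to read them against are 41.5% higher and 32.7% lower for SR1848 against DMSO, and 21.8% and 12.4% for SR1848_NR5A2OE against SR1848 (24.4% and 18.1% without the 14). Of 30 other genes of the naive pluripotency network, 27 were tested without the 16 libraries, and 8 were higher and 11 lower in SR1848 than in DMSO embryos (median log2 fold change -0.23, beside 0.35 over all genes), which is below the share of all genes for higher ones and above it for lower ones. In SR1848_NR5A2OE against SR1848, 12 were higher and 2 lower, more and fewer than the shares of all genes, and 12 and 4 without the 14. Fgf4, which encodes a growth factor of the inner cell mass, had medians of 0.687 and 1.31 CPM in SR1848_NR5A2OE embryos of experiment 1 and in libraries 9 to 40 of experiment 2, of 0 and 0.429 CPM in SR1848 embryos and of 93.9 CPM in DMSO embryos of experiment 1. Its log2 fold change without the 16 was -6.21 ± 0.68 in SR1848 against DMSO (edgeR adjusted p 1.54e-14) and 1.59 ± 0.49 in SR1848_NR5A2OE against SR1848 (edgeR adjusted p 0.00682). L1td1, an RNA-binding gene of pluripotent cells, followed the same directions (-5.41 ± 0.67 and 2.25 ± 0.53, edgeR adjusted p 4.89e-12 and 0.00037). Fbxo15, which encodes an F-box protein and is known as a target of POU5F1 and SOX2 in mouse cells, was lower in SR1848 than in DMSO embryos (-3.33 ± 0.26, edgeR adjusted p 2.83e-22) and did not pass in SR1848_NR5A2OE against SR1848 (0.24 ± 0.19, edgeR adjusted p 0.352).

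Of 18 genes of the Nodal pathway, which signals through the TDGF1 co-receptor, 12 were tested, and 5 were higher and 4 lower in SR1848 than in DMSO embryos, close to the shares of all genes. In SR1848_NR5A2OE against SR1848, 4 were higher, above the share of all genes, and 0 lower by edgeR, with 5 and 1 as labelled and 6 and 2 without the 14. Lefty1, which encodes a secreted inhibitor of Nodal, had medians of 0.448 and 3.93 CPM in SR1848_NR5A2OE embryos of experiment 1 and in libraries 9 to 40 of experiment 2, and of 0 in SR1848 embryos of both experiments and in DMSO embryos of experiment 1. Its log2 fold change in SR1848_NR5A2OE against SR1848 was 6.76 ± 0.62 (edgeR adjusted p 1.07e-16) and rests on counts near 0 in SR1848 embryos. Smad7, an intracellular inhibitor of the same family of signals, was lower in SR1848 than in DMSO embryos (-5.34 ± 0.51, edgeR adjusted p 2.76e-17) and higher in SR1848_NR5A2OE than in SR1848 embryos (3.20 ± 0.42, edgeR adjusted p 4.42e-10). Gdf3, a ligand that needs the same co-receptor, was lower in SR1848 than in DMSO embryos (-3.76 ± 0.65, edgeR adjusted p 1.65e-07). It did not pass in SR1848_NR5A2OE against SR1848 (1.10 ± 0.51, edgeR adjusted p 0.0818). With the low libraries and the 14 also set aside it passed there (1.88 ± 0.47, edgeR adjusted p 0.000584). In that fit SR1848 against DMSO, which holds none of the 14, moved to -5.29 ± 0.61. The part of the low libraries in the change was not tested.

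Of 17 other Dppa genes and 2-cell genes that DPPA2 and DPPA4 prime in mouse embryonic stem cells, 16 were tested. In SR1848 against DMSO 2 were higher and 3 lower as labelled, both below the 33.1% and 36.0% of all genes in that fit. Without the 16, 9 were higher and 3 lower, above the share of all genes for higher ones and below it for lower ones. In SR1848_NR5A2OE against SR1848, 9 were higher without the 16, above the share of all genes, and 0 lower by edgeR (1 lower with the low libraries also set aside). Without the 14 libraries 6 were higher and 1 lower. Many of these genes belong to families of near-identical copies, such as Zscan4 and Tdpoz, whose reads the counting divides between copies, so their single values are uncertain. Tcstv1 was higher in SR1848 than in DMSO embryos (3.60 ± 0.53, edgeR adjusted p 1.7e-09), with medians of 61.2 and 72.3 CPM in SR1848 embryos of experiments 1 and 2 and of 7.36 CPM in DMSO embryos of experiment 1. Dppa5a, which encodes an RNA-binding protein of pluripotent cells, was lower in SR1848 than in DMSO embryos (-2.99 ± 0.32, edgeR adjusted p 5.03e-15) and higher in SR1848_NR5A2OE than in SR1848 embryos (1.55 ± 0.24, edgeR adjusted p 6.5e-08). Dppa1 was higher in SR1848 embryos (1.62 ± 0.44, edgeR adjusted p 0.000574).

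Of 14 genes of the NuRD co-repressor, with which SALL4 and NANOG are known to associate in mouse embryonic stem cells, all were tested, and 4 were higher and 6 lower in SR1848 than in DMSO embryos, below the share of all genes for higher ones and above it for lower ones. The deacetylase gene Hdac1 had medians of 29.5 and 37.1 CPM in SR1848_NR5A2OE embryos of experiment 1 and in libraries 9 to 40 of experiment 2, of 19.2 and 26.9 CPM in SR1848 embryos and of 336 CPM in DMSO embryos of experiment 1. On the log2 scale the fold change was -3.43 ± 0.29 in SR1848 against DMSO (edgeR adjusted p 6.93e-20). Its paralog Hdac2 went the other way (1.55 ± 0.34, edgeR adjusted p 2.45e-05), and Mta2 was lower (-3.47 ± 0.46, edgeR adjusted p 3.98e-11). In SR1848_NR5A2OE against SR1848, 2 of these genes were higher and 3 lower (2 and 6 without the 14 libraries), Hdac2 among the lower ones (-1.21 ± 0.22, edgeR adjusted p 4.47e-06).

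Genes of like pattern were ranked by the mean absolute difference of centred median log2 CPM over the 8 sets of libraries, among 6717 genes. For Dppa2 the nearest were Tbp (0.11), Lrr1 (0.14) and Exosc3 (0.14), where the Dppa2 medians themselves spanned 3.89. For Dppa4 they were Ankrd10 (0.52), Ubxn1 (0.55) and Mat2a (0.55), with a span of 8.56. For Nanog they were Lhfpl4 (0.20), Dlg4 (0.20) and Cxcr2 (0.21), and for Zfp42 Ppcs (0.34), Polr2h (0.48) and Clp1 (0.53). For Pou5f1 they were Ngef (0.10), Slc35c2 (0.14) and Mettl7a2 (0.19), and for Sall4 Kdm4a (0.07), Mphosph10 (0.10) and Nutf2 (0.11). Among the 9 genes the closest pair was Dppa2 with Prdm14 (0.75), followed by Nanog with Sox2 (0.82) and Zfp42 with Prdm14 (0.90), and the farthest was Pou5f1 with Dppa4 (4.61). Each of these closest pairs holds Prdm14 or Sox2. In several sets the median of either gene was at the level of no count (-2.19 log2 CPM), so these distances depend in part on the prior count.

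Most of each gene's counts came from a main annotated transcript, with a share of 87.9% for Dppa2, 81.9% for Dppa4, 93.4% for Nanog, 99.1% for Pou5f1 and 77.1% for Sall4. Zfp42 was divided between transcripts of 1772 and 1837 bases, with 50.6% and 47.3% of its counts. The processed pseudogenes Nanog-ps1, Nanog-ps2, Tdgf1-ps1, Tdgf1-ps2 and Zfp42-ps1 averaged 0.130 CPM or less over all libraries. The authors' deposited table, which compares SR1848_NR5A2OE with SR1848 per transcript, gives a log2 fold change of 1.91 for the main Nanog transcript (adjusted p 4.94e-18) and of -1.18 for that of Dppa2 (adjusted p 4.04e-08). For the 2 main Zfp42 transcripts the authors' deposited table gives 2.78 and 2.89, for Tdgf1 2.77, for Sox2 0.93 and for Sall4 -0.67. Its value for the main Dppa4 transcript is 4.78e-06 at an adjusted p of 0.00635, and for the main Pou5f1 transcript -1.73e-05 at an adjusted p of 0.0079. Pou5f1 thus passed in the authors' table but not in the edgeR fits by gene here. The Prdm14 transcript did not pass in that table (adjusted p 0.365). Such near-zero values beside a low p look like a shrunken estimate, which no source used here states.

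Markers of other cells and stages were summed last. In the 56 SR1848_NR5A2OE, 40 SR1848 and 18 DMSO embryos, 12 genes of cumulus and granulosa cells summed to medians of 24.2, 17.6 and 93.3 CPM, with ranges of 4.23 to 61.2, 1.39 to 225 and 41.1 to 147 CPM. Their defining genes Foxl2, Amh and Fshr had medians of 0 in all 3 groups. In the same order of groups, 4, 2 and 2 of the 12 genes had medians of at least 1 CPM. The 9 sperm genes summed to medians of 6.98, 6.48 and 25.5 CPM in the same order, and Prm1 had a median of 0 in each group. Medians of at least 1 CPM were held by 2 of these 9 genes in each group. The 7 blood and epithelium genes summed to medians of 224, 49.1 and 200 CPM (ranges 5.77 to 546, 18.9 to 207 and 98.5 to 315 CPM). Hbb-bs, Hbb-bt, Ptprc and Krt5 had medians of 0 in each group. The other 3 genes, Hba-a1, Hba-a2 and Epcam, had medians of at least 1 CPM in each group. The 10 genes of trophectoderm and primitive endoderm summed to medians of 144, 53.0 and 142 CPM (ranges 53.2 to 609, 28.2 to 87.6 and 66.4 to 166 CPM), with Cdx2 at a median of 0 in each group. Of these 10, 9 had medians of at least 1 CPM in SR1848_NR5A2OE embryos, 3 in SR1848 embryos and 4 in DMSO embryos. Without the 14 libraries the 10 genes summed to a median of 177 CPM in SR1848_NR5A2OE embryos, with a range of 73.6 to 609 CPM. The 9 markers of the 2-cell stage summed to medians of 601, 169 and 912 CPM (ranges 0.577 to 3558, 79.1 to 2038 and 755 to 1273 CPM), and all 9 had medians of at least 1 CPM in SR1848_NR5A2OE and DMSO embryos and 8 in SR1848 embryos. Without the 14 libraries the 2-cell markers summed to a median of 135 CPM in the 42 SR1848_NR5A2OE embryos left, with a range of 41.2 to 3189 CPM. With all libraries of a set counted, the median was 1214 CPM in SR1848_NR5A2OE embryos of experiment 1. It was 135 CPM in libraries 9 to 40 of experiment 2. The 14 hold 9 embryos of experiment 1 and 5 of experiment 2, so leaving them out also shifts the mix of experiments. The part of each in the lower median was not tested. The part of these sums in the differences of the 9 genes was not tested.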

How the data were processed

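RNA of single embryos was sequenced by SmartSeq2 with oligo-dT priming, per the labels' protocols. Per the submitters' processing notes, bcl2fastq, Trim Galore 0.6.2, kallisto 0.46.1, R 3.5.1 and DESeq2 1.32.0 were used with the builds mm10 and hg19, and what hg19 was used for is not stated there. The deposited table holds an estimated count from kallisto, made by the authors, for each of 119358 transcript entries, 26.3% of them not whole (tolerance 1e-09). The authors' deposited comparison of SR1848_NR5A2OE with SR1848 holds log2 fold changes and p-values per transcript, per the file headers. Columns were matched to samples by prefix, number and experiment, with C88 read as SR1848_NR5A2OE and ComS as SR1848 from their replicate numbers.

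Counts were summed by symbol, with the authors' table pairing 117523 entries and GENCODE M21 another 51; 1779 unpaired entries (0.656% of counts) and 5 entries for SINE repeats, GFP and an Nr5a2 sequence (0.158%) were kept apart. Sums were rounded and tested with edgeR 4.0.16 in R 4.3.3 (quasi-likelihood, TMM, filterByExpr, group and experiment as terms), with Benjamini-Hochberg adjustment over all genes tested at 0.05; the script was tested on simulated data. Log2 CPM used a prior count of 1. Low libraries had a total under 1 in 5 of the median or detected genes under 1 in 2 of it. SmartSeq2 libraries keep no strand. Alternatives were the 16, the low or the 14 libraries with GFP under 100 CPM left out, each experiment alone, other scalings, no filter, DESeq2 1.42.0 and a replicate block. Leaving out single embryos was not run in groups of this size.

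The members, lists and tests were chosen with earlier results of these data known. All 9 members are named; of each list, the 3 genes with the smallest p in SR1848 against DMSO as labelled; and of genes of like pattern (mean of at least 3 log2 CPM; no predicted, Rik or pseudogene symbol), the nearest 3. Same-numbered samples did not deviate together (median correlation 0.01 over 97 pairs, 13 over 0.1), so numbers were not taken to pair embryos. No libraries held identical values.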

Additional observations from a re-analysis of the deposited data

Results flagged for a closer look

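The effect differed between experiments as labelled, by the edgeR interaction test (experiment 2 minus experiment 1, log2), for 9 results. In SR1848 against DMSO it was -2.91 for Nanog and -2.62 for Pou5f1, and in SR1848_NR5A2OE against SR1848 it was 1.80 for Dppa2 and 3.51 for Prdm14. In SR1848_NR5A2OE against DMSO it was 3.26 for Dppa2, 4.15 for Dppa4, -2.56 for Nanog, -2.23 for Pou5f1 and -4.03 for Sox2. Without the 16 libraries none of the 9 genes passed this test in any of the 3 comparisons. Experiment 2 then holds 2 DMSO embryos, so the comparisons with DMSO could miss large differences between the experiments.

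GFP, which was not tested as a gene but was used to read the labels and to set the 14 libraries apart, had a median of 2514 CPM in libraries 1 to 8 of experiment 2 labelled DMSO. In the 8 libraries of experiment 2 numbered 1 to 8 and labelled SR1848_NR5A2OE, 1 embryo (number 7) held Sox2 at 0.403 CPM while the other 7 held none, so its gap to the nearest was 1.0 of the whole range. This was the only such embryo in 27 groups tested. The chance rate of about 1 in 20 does not hold for it, since with the other 7 tied at 0 any count gives this gap.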

How the results depend on the processing

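Relative log expression, total counts and no filter on low counts turned no direction among the 9 genes. Without the 16 libraries Nanog in SR1848 against DMSO was at 0.51 and Dppa2 in SR1848_NR5A2OE against SR1848 at -0.84; 2 genes were then higher in SR1848 than in DMSO, 2 lower in SR1848_NR5A2OE than in SR1848 and 5 lower in SR1848_NR5A2OE than in DMSO. With the low libraries also left out these were 0.40, -0.86, 2, 2 and 5, and with DESeq2 without the 16 they were 0.077, -0.92, 2, 2 and 5. Without the low libraries alone 2 genes were lower in SR1848_NR5A2OE than in SR1848, and with DESeq2 as labelled 1 was. The interaction without the 16 turned in SR1848 against DMSO for Nanog (0.72), Sox2 (4.08), Zfp42 (-0.62), Dppa2 (-0.47) and Tdgf1 (1.20), and in SR1848_NR5A2OE against SR1848 for Dppa4 (-1.20) and Sall4 (-0.16). In SR1848_NR5A2OE against DMSO it turned for Nanog (1.33), Pou5f1 (0.55), Sox2 (2.99), Zfp42 (-1.81), Dppa2 (-0.27), Dppa4 (-1.08), Tdgf1 (1.31) and Prdm14 (-0.96). In experiment 1 alone Nanog was at 0.59 in SR1848 against DMSO (2 genes higher) and Dppa2 at -0.94 in SR1848_NR5A2OE against SR1848 (1 lower). In experiment 2 alone as labelled, Sox2 and Sall4 were at -0.65 and 0.26 in SR1848 against DMSO (0 higher), and Nanog and Sox2 at -0.29 and -0.017 in SR1848_NR5A2OE against DMSO (0 higher, 0 lower; 343 of all genes had an unadjusted edgeR p under 0.05). In experiment 2 without the 16, Nanog was at 1.11 in SR1848 against DMSO (2 higher), Pou5f1 at 0.055 and Dppa2 at -0.74 in SR1848_NR5A2OE against SR1848 (2 lower), and Tdgf1 at 0.87 in SR1848_NR5A2OE against DMSO. The cause of these changes beyond the libraries left out was not tested.

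Scaled to the oocyte list as labelled, Sox2 in SR1848 against DMSO was at -0.40 (0 genes higher), and Pou5f1 and Sall4 in SR1848_NR5A2OE against SR1848 at 0.87 and 0.67. Without the 16 these were 0.94 and 0.17, with 6 genes lower in SR1848_NR5A2OE than in DMSO. With the low libraries also left out Pou5f1, Sall4 and Dppa2 were at 0.077, 0.041 and -0.46, with 1 gene lower in SR1848_NR5A2OE than in SR1848 and 6 lower than in DMSO. With the 14 libraries labelled SR1848_NR5A2OE that hold little GFP left out as well, Nanog in SR1848 against DMSO was at 0.47, and Dppa2 and Dppa4 in SR1848_NR5A2OE against SR1848 were at -0.94 and -0.055 (2 genes lower, and 5 lower in SR1848_NR5A2OE than in DMSO), and Sox2 did not pass. On the oocyte scale Pou5f1 and Dppa2 were then at 0.14 and -0.72 (2 lower than in SR1848, 6 lower than in DMSO). The oocyte scale without the 16 and without both sets, the settings without the 14 and DESeq2 without the 16 were chosen after seeing the data. Over all genes, 4801 were higher and 5216 lower in SR1848 than in DMSO as labelled, against 615 and 10213 on the oocyte scale, 6306 and 8825 with no filter and 643 and 3233 in experiment 2 alone. For SR1848_NR5A2OE against SR1848 the counts were 4285 and 1878 as labelled, 9795 and 251 on the oocyte scale, 9007 and 2716 with no filter and 1758 and 703 in experiment 1 alone. For SR1848_NR5A2OE against DMSO they were 4475 and 3737 as labelled, 1129 and 6539 on the oocyte scale and 2097 and 3197 in experiment 2 without the 16. Sox2, Tdgf1 and Prdm14 are limited by depth, since a count of 0 in a library of median depth allows 0.639 CPM.

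Same-numbered embryos did not deviate together (correlations from -0.492 to 0.33), so the numbers give no pairing. With the number as a replicate block, in 113 libraries, Sox2 and Sall4 in SR1848 against DMSO were at -0.40 and 0.085, Dppa2 in SR1848_NR5A2OE against SR1848 was at -0.019, and 1 gene was higher and 2 lower in SR1848_NR5A2OE than in DMSO. Over all genes the block gave 3094 higher and 1068 lower in SR1848_NR5A2OE against SR1848, and 3346 and 2457 in SR1848_NR5A2OE against DMSO.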
